A study of Mus musculus with 6 samples.

Results

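Immunoglobulin variable (V) segments were followed as 133 rows of a gene count table from whole visceral adipose tissue of mice. The members were every row whose symbol began with Ighv (heavy chain), Igkv (kappa light chain) or Iglv (lambda light chain) and a digit, and whose raw counts summed over 6 libraries reached 10. They comprised 59 Ighv, 71 Igkv and 3 Iglv segments out of 346 such rows in a table of 55011 genes. Of the other rows, 82 had between 1 and 9 counts and 131 had none. The members held 25191 counts, 98.8% of all V counts in the table. Just inside the threshold, at 10 summed counts, were Ighv13-2, Ighv3-1, Igkv1-88, Igkv3-7 and Igkv4-54. Just outside, at 9, were Ighv10-1, Ighv2-5, Ighv2-9, Ighv3-5 and Igkv5-37. The sum that chose the members was not spread evenly, since 64.9% of their counts came from 1 library, Bmal1KO replicate 3.

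The libraries came from 3 samples labelled Bmal1KO and 3 labelled Bmal1WT. All were from male C57BL/6 mice, 30 weeks old, that carried Foxp3.YFP-Cre, a Cre recombinase driven by Foxp3 and so active in regulatory T cells, and Bmal1 is the clock protein encoded by Arntl. They had eaten low-fat food for 14 weeks and then high-fat food for 16 weeks, and were sampled at lights on (zeitgeber time 0 h). Nothing in the labels states that the numbered samples were separate animals, and p-values therefore reflect variation among these 6 samples, which may in part be technical.

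Each developing B cell joins a V segment to a J segment (and, in the heavy chain, a D segment between them), and the joined exon is spliced to a constant region to make the mRNA of an antibody chain. A descendant clone keeps the segments its founder chose, so V segment reads in a tissue record which rearranged genes its B cells and antibody-secreting plasma cells transcribe. Plasma cells carry far more of this mRNA per cell than resting B cells. Visceral fat of mice is known for B-1 cells, which make natural antibodies, and for clusters of lymphoid cells.

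Coding sequences of 8 members are shown as examples. Ighv11-2 and Igkv14-126 are the heavy and kappa segments that mouse B-1a cells are known to pair in antibodies to phosphatidylcholine. Ighv1-26 and Igkv4-59 are among the most abundant segments of Bmal1KO replicate 3. Ighv5-15 and Igkv8-30 led Bmal1KO replicate 1, and Iglv1 and Iglv2 are the near-identical lambda segments. The sequences are those of GENCODE M21 transcripts on mm10, and each line gives the last 300 coding bases, which hold most of the variable domain, 5′ to 3′ in the sense of the gene. Capitals mark the bases covered by no window of 38 bases, the read length, that occurs in a single V segment, so that a read lying wholly in capitals could come from another V segment.
Ighv11-2: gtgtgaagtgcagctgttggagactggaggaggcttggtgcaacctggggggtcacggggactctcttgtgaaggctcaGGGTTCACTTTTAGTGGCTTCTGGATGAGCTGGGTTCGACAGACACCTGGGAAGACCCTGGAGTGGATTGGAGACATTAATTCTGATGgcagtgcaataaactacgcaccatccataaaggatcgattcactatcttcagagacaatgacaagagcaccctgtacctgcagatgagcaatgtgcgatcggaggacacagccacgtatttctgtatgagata
Igkv14-126: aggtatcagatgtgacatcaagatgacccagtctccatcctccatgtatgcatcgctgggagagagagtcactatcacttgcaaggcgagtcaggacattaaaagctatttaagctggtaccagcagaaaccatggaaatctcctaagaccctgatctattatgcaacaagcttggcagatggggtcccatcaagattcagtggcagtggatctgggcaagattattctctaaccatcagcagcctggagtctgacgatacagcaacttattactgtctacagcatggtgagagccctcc
Ighv1-26: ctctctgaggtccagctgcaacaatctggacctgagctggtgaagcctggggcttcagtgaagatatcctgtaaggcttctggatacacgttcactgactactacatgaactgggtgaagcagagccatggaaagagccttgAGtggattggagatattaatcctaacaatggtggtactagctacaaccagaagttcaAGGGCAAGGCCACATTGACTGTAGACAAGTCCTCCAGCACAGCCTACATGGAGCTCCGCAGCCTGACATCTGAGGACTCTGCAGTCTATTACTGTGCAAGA
Igkv4-59: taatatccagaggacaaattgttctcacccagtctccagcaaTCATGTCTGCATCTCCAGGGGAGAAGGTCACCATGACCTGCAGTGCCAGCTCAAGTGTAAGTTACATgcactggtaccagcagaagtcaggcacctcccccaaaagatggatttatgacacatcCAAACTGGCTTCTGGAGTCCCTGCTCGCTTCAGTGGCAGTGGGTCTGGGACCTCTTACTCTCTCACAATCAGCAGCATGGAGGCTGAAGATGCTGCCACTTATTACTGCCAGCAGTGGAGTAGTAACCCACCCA
Ighv5-15: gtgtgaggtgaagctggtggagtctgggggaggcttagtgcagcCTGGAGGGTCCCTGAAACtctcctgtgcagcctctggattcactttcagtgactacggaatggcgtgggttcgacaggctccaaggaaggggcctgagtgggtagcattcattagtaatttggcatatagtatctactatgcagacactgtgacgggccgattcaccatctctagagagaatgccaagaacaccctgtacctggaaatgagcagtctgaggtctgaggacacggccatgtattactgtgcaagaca
Igkv8-30: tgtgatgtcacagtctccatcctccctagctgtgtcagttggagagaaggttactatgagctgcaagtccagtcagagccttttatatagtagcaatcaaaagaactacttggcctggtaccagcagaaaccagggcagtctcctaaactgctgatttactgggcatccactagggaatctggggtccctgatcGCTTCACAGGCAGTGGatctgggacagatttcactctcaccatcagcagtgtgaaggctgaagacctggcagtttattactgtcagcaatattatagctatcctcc
Iglv1: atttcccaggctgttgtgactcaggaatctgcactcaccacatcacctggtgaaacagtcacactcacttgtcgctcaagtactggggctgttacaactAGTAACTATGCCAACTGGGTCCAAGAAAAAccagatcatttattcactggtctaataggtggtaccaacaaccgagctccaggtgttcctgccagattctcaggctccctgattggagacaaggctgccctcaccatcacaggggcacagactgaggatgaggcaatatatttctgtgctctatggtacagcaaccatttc
Iglv2: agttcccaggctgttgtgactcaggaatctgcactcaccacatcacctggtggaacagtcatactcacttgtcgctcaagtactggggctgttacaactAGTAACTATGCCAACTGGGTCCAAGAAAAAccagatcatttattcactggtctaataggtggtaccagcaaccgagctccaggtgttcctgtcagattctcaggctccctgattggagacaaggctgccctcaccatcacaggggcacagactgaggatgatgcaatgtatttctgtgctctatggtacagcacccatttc

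On mm10, Ighv11-2 lies at chr12:114048241-114048812 (minus strand), Igkv14-126 lies at chr6:67896172-67896642 (plus strand), Ighv1-26 lies at chr12:114788372-114788805 (minus strand) and Igkv4-59 lies at chr6:69438218-69438757 (minus strand). Ighv5-15 lies at chr12:113826646-113827129 (minus strand), Igkv8-30 lies at chr6:70117061-70117620 (minus strand), Iglv1 lies at chr16:19085017-19085500 (minus strand) and Iglv2 lies at chr16:19260401-19260859 (minus strand). All 8 genes have 2 exons in the annotation, and both hold coding sequence. Iglv1 and Iglv2 differed at 11 of 351 aligned coding bases, an identity of 96.9%. The capitals take up 67% of the stretch shown for Igkv4-59 and 34.3% of that for Ighv1-26. These counts are less certain than that of Igkv14-126, which has no capital base. Capitals understate the sharing, since a base is in capitals only if every window over it is shared. The windows particular to the segment were 17.5% for Igkv4-59, 33.4% for Ighv1-26, 68.9% for Igkv8-30 and 97.8% for Igkv14-126. Igkv4-59 shared windows with 29 other V segments and Ighv1-26 with 30. Over the 133 members a median of 63.3% of such windows were particular to the segment, with a range from 3.90% to 100%, and 93 members reached 50% or more. How reads that fit several genes were counted is not given in the sources used here, and the libraries do not mark the strand.

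Depth ran from 6514620 to 9529198 counts per library, and a floor of 3 counts, the limit that a count of 0 allows, corresponded to between 0.322 and 0.446 counts per 1000000 (CPM). Libraries were amplified from 2 ng of RNA without molecular identifiers, so that floors and intervals cover counting error only. Bmal1KO replicate 1 stood apart with counts in 30019 genes, against 19009 to 20145 in the other 5 libraries. Bmal1WT replicate 1 stood apart in epididymis markers. A list of 14 markers of epididymis and testis summed to 338 CPM there and to 0 to 2.23 CPM elsewhere. The testis genes of that list, Prm1, Prm2, Tnp1 and Tnp2, had 0 counts in Bmal1WT replicate 1. Arntl had 324, 289 and 314 counts in Bmal1KO and 273, 242 and 373 in Bmal1WT. Foxp3, which marks the cells meant to lose Bmal1, had 3, 0 and 2 counts in Bmal1KO and 0 in each Bmal1WT library, so Arntl in whole tissue does not check the labels. Adipocyte markers identified the tissue, with summed levels of 19487 to 33536 CPM in Bmal1KO and 28482 to 33069 CPM in Bmal1WT.

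V segment RNA was abundant in Bmal1KO replicates 1 and 3 and scarcest of all 6 libraries in Bmal1KO replicate 2. Summed over the members it reached 941, 19.8 and 2018 CPM in Bmal1KO replicates 1, 2 and 3, against 162, 52.1 and 52.3 CPM in Bmal1WT replicates 1, 2 and 3. The Bmal1KO range enclosed the whole Bmal1WT range, and the highest library was 102 times the lowest. Means were 993 ± 1000 CPM in Bmal1KO and 88.6 ± 63.1 CPM in Bmal1WT (SD, n = 3 each), a ratio of 11.2, with an SD in Bmal1KO as large as its mean. The ratio was 5.42 without Bmal1KO replicate 3, 19.0 without Bmal1WT replicate 1 and 19.5 without replicate 1 of both groups, and 4.40 as a ratio of geometric means. With the 10 segments that led a library at any locus left out, it was 13.0, so it did not rest on those segments. With 3 samples against 3 an exact two-sided test cannot go below p = 0.1, and no test was made on the sum because the members were chosen with results known. In whole tissue, more B-lineage cells and more of this RNA per cell cannot be told apart.

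**Figure D1:**
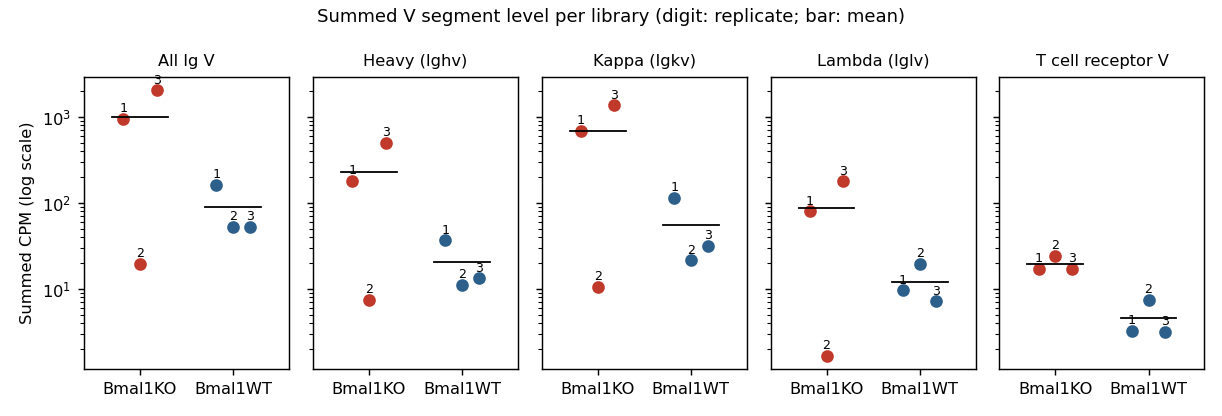
Summed V segment level per library in CPM on a log scale, for all immunoglobulin V members, for each locus and for T cell receptor V rows; each point is 1 library labelled with its replicate number and each bar is a group mean. Bmal1KO replicate 2 lies lowest in the 4 immunoglobulin panels (19.8 CPM over all loci) and highest in the T cell receptor panel (24.5 CPM).

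The 3 loci gave the same order at the top and at the bottom, with Bmal1KO replicate 3 highest and Bmal1KO replicate 2 lowest. Heavy chain segments summed to 181, 7.45 and 492 CPM in Bmal1KO and to 36.7, 11.2 and 13.3 CPM in Bmal1WT. Kappa segments summed to 680, 10.6 and 1349 CPM in Bmal1KO and to 115, 21.5 and 31.8 CPM in Bmal1WT. Lambda segments summed to 79.9, 1.69 and 178 CPM in Bmal1KO and to 9.66, 19.4 and 7.19 CPM in Bmal1WT. Groups overlapped at every locus, and the one change of order between loci was within Bmal1WT, where replicate 2 was highest for lambda and lowest for heavy and kappa.

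The V sum was set beside the constant regions to which V segments are spliced. Igkc, the kappa constant region, had 9918, 218 and 23796 counts in Bmal1KO and 1895, 473 and 720 in Bmal1WT, a 119-fold range in CPM with the same libraries at its ends as the V sum. Kappa V counts per 100 Igkc counts ran from 43.1 to 46.1 in Bmal1KO and from 38.9 to 53.5 in Bmal1WT, a narrow range beside that of either gene group alone. Ighm, the mu heavy chain, had 16418, 6241 and 33150 counts in Bmal1KO and 11979, 12763 and 16332 in Bmal1WT. Its CPM range was 5.81-fold, far narrower than that of V segments. Ighv counts per 100 Ighm counts were 7.41, 1.06 and 12.0 in Bmal1KO and 2.696, 0.752 and 0.759 in Bmal1WT, so the ratio of heavy V to mu counts was highest where the V sum was highest. Jchain, which links IgM and IgA subunits and is abundant in plasma cells, had 1982, 36 and 4725 counts in Bmal1KO and 346, 170 and 104 in Bmal1WT.

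Across the 6 libraries 5 different segments led the heavy chain. In Bmal1KO the most abundant Ighv segment took 23.7% of heavy V counts in replicate 1 (Ighv5-15, 288 counts, 95% Wilson interval 21.4% to 26.1%), 24.2% in replicate 2 (Ighv3-6, 16 counts, 15.5% to 35.8%) and 24.9% in replicate 3 (Ighv1-26, 991 counts, 23.6% to 26.3%). In Bmal1WT it took 18.6% in replicate 1 (Ighv1-26, 60 counts, 14.7% to 23.2%), 20.8% in replicate 2 (Ighv1-9, 20 counts, 13.9% to 30.0%) and 8.06% in replicate 3 (Ighv11-2, 10 counts, 4.44% to 14.2%). The leading share averaged 24.3 ± 0.621% in Bmal1KO and 15.8 ± 6.81% in Bmal1WT (SD, n = 3 each), and the groups did not overlap. The intervals did: that of Bmal1WT replicate 2 overlapped the interval of every Bmal1KO library. That of Bmal1WT replicate 1 overlapped those of Bmal1KO replicates 1 and 2. The difference of 8.45 percentage points came to 4.57 without Bmal1WT replicate 3.

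**Figure D2:**
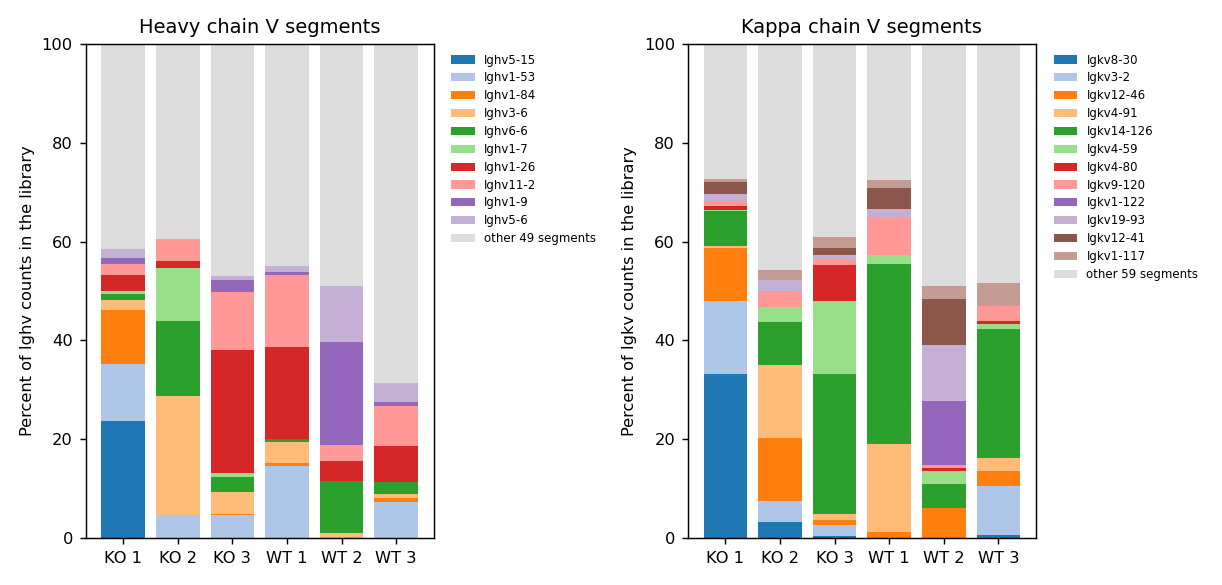
Percent of each library's heavy (left) and kappa (right) V counts taken by the segments that ranked among the top few in any library, with all other members in grey; KO and WT stand for Bmal1KO and Bmal1WT. In the heavy chain 5 segments lead the 6 libraries, from Ighv1-26 at 24.9% in KO 3 to Ighv11-2 at 8.06% in WT 3, and Igkv14-126 is the largest kappa block in KO 3, WT 1 and WT 3.

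Ighv5-15 was nearly all in a single library, with 288, 0 and 1 counts in Bmal1KO and 0 in each Bmal1WT library. Ighv1-26 had 41, 1 and 991 counts in Bmal1KO and 60, 4 and 9 in Bmal1WT. It was highest in Bmal1KO replicate 3 and lowest in Bmal1KO replicate 2, so the groups overlapped. Ighv1-53, next by summed counts after Ighv1-26 and Ighv11-2, had 140, 3 and 186 counts in Bmal1KO and 47, 0 and 9 in Bmal1WT. Bmal1KO replicates 1 and 3 exceeded every Bmal1WT library for this segment, while Bmal1KO replicate 2 lay among them. Ighv3-6 was more even, with 26, 16 and 178 counts in Bmal1KO and 14, 1 and 1 in Bmal1WT, and was 1 of 7 members with every Bmal1KO library above every Bmal1WT library, as were 7.83% of genes with at least 10 counts. Ighv1-9, the leader of Bmal1WT replicate 2, had 13, 0 and 95 counts in Bmal1KO and 2, 20 and 1 in Bmal1WT, with overlap.

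In the kappa chain Igkv14-126 led 3 of the 6 libraries. It had 319, 8 and 3082 counts in Bmal1KO and 369, 9 and 77 in Bmal1WT, which gave shares of kappa V counts of 6.98%, 8.51% and 28.2% in Bmal1KO and 36.4%, 4.89% and 26.0% in Bmal1WT. High and low shares occurred in both groups. Its level averaged 143 ± 207 CPM in Bmal1KO and 17.1 ± 21.8 CPM in Bmal1WT (SD, n = 3 each), with a log2 fold change of 3.07 ± 2.17 (SE; edgeR quasi-likelihood test, Benjamini-Hochberg adjusted p = 0.704).

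Igkv8-30 led Bmal1KO replicate 1, with 1517, 3 and 39 counts in Bmal1KO and 0, 0 and 2 in Bmal1WT. These made up 33.2% of kappa V counts in Bmal1KO replicate 1 (31.8% to 34.6%) and 3.19% or less elsewhere. Every Bmal1KO library lay above every Bmal1WT library, although Bmal1KO replicate 2 and Bmal1WT replicate 3 were 1 count apart. Igkv4-59 had 7, 3 and 1612 counts in Bmal1KO and 19, 5 and 3 in Bmal1WT. Outside Bmal1KO replicate 3 its libraries ran from 3 to 19 counts and the groups overlapped. The remaining leaders were Igkv4-91 with 14 counts (14.9%) in Bmal1KO replicate 2 and Igkv1-122 with 24 counts (13.0%) in Bmal1WT replicate 2. Igkv4-91 was highest in Bmal1WT replicate 1, with 19, 14 and 139 counts in Bmal1KO and 179, 0 and 8 in Bmal1WT, and its log2 fold change was 0.03 ± 1.78 (SE; edgeR adjusted p = 0.996). Igkv1-122 had 0, 0 and 11 counts in Bmal1KO and 0, 24 and 0 in Bmal1WT, with overlap.

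The B-1a pair was read on both chains. This pair was chosen after its values were seen. Ighv11-2 had 27, 3 and 466 counts in Bmal1KO and 47, 3 and 10 in Bmal1WT, or 2.22%, 4.55% and 11.7% of heavy V counts in Bmal1KO and 14.6%, 3.13% and 8.06% in Bmal1WT. The 3 libraries with the highest share of Ighv11-2 were also the 3 with the highest share of Igkv14-126. They were Bmal1KO replicate 3, Bmal1WT replicate 1 and Bmal1WT replicate 3. For Ighv11-2 the Wilson interval of Bmal1WT replicate 3 was 4.44% to 14.2%, from 10 counts. It overlapped those of Bmal1KO replicate 2 (3 counts, 1.56% to 12.5%) and Bmal1WT replicate 2 (3 counts, 1.07% to 8.79%). It lay above that of Bmal1KO replicate 1 (1.53% to 3.21%). These counts are too few to settle the match between chains. Bulk counts do not show which heavy and light chains share a cell. Ighv11-2 shares windows with Ighv11-1, and 54.0% of its own windows were particular to it. Ighv12-3 and Igkv4-91 are the other pair known in these antibodies. Ighv12-3 had 0, 3 and 25 counts in Bmal1KO and 0 in each Bmal1WT library, including Bmal1WT replicate 1, where Igkv4-91 took 17.7% of kappa V counts. Of the 323 heavy V counts of that library, a count of 0 for Ighv12-3 allowed a share of up to 1.18% (Wilson). The highest share of Ighv12-3 was in Bmal1KO replicate 2, at 4.55% of heavy V counts (3 counts, 1.56% to 12.5%). There Igkv4-91 led the kappa chain with 14.9% (14 counts). Such counts are too few to settle a match for this pair either.

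Lambda usage differed most in a single Bmal1WT library. Iglv1, the commonest mouse lambda segment, had 377, 14 and 1053 counts in Bmal1KO and 51, 164 and 49 in Bmal1WT, and was the most abundant Iglv segment in all 6 libraries. Iglv2 had 139, 0 and 335 counts in Bmal1KO and 34, 2 and 13 in Bmal1WT, and Iglv3 had 21, 1 and 52 in Bmal1KO and 0, 0 and 5 in Bmal1WT. In Bmal1WT replicate 2, Iglv1 alone supplied 36.8% of all V counts. The kappa share of light chain V counts was 89.5%, 86.2% and 88.3% in Bmal1KO, against 92.3%, 52.6% and 81.5% in Bmal1WT. The Wilson interval of the low library, 47.3% to 57.7%, did not reach that of any other. The constant regions were lowest in the same library, and Igkc made up 91.3%, 83.2% and 90.2% of light chain constant counts in Bmal1KO and 92.3%, 59.6% and 85.9% in Bmal1WT. The group difference in kappa share of 12.6 percentage points came to 1.12 without Bmal1WT replicate 2.

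More segments were detected where more V counts were drawn. At a detection limit of 3 counts, 102, 26 and 127 members were found in Bmal1KO and 55, 29 and 47 in Bmal1WT, a mean difference of 41.3 that came to 20.3 without Bmal1KO replicate 3 and 70.8 without Bmal1KO replicate 2. Drawing every library down to 175 V counts, the number in the poorest, gave an expected 45.6, 45.0 and 55.4 segments in Bmal1KO and 40.4, 40.3 and 56.1 in Bmal1WT. The means at this equal depth were 48.7 ± 5.82 in Bmal1KO and 45.6 ± 9.05 in Bmal1WT (SD, n = 3 each), a difference smaller than either SD. The raw number of segments followed the V sum of the library.

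**Figure D3:**
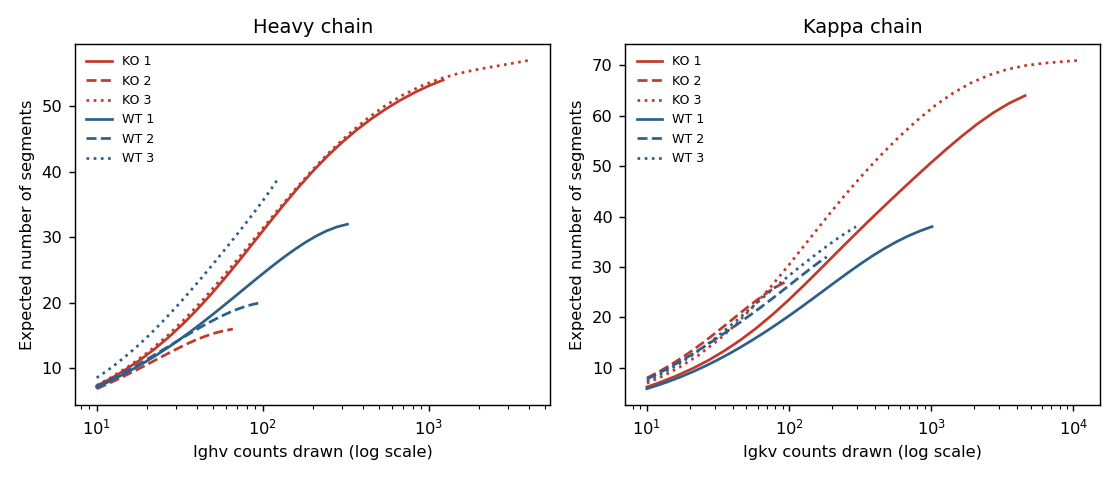
Expected number of heavy (left) and kappa (right) segments against the number of V counts drawn at that locus, on a log scale, with red lines for Bmal1KO (KO) and blue for Bmal1WT (WT); each line ends at the library's own V count. At 66 heavy counts WT 3 lies highest at 29.7 segments and KO 2 lowest at 16.0, and at 94 kappa counts KO 3 lies highest at 29.5 and WT 1 lowest at 19.8.

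Diversity was read as the effective number of segments, the exponential of the Shannon entropy, which equals the count of segments if all were used equally. It depends on how many segments were found as well as on how evenly they were used. For the heavy chain it was 22.2, 11.8 and 23.4 in Bmal1KO and 16.7, 14.5 and 28.6 in Bmal1WT. For the kappa chain it was 13.6, 19.8 and 20.4 in Bmal1KO and 10.9, 19.8 and 19.6 in Bmal1WT. Both loci overlapped in this number, and the sign of each of its group differences turned when single libraries were left out. Evenness alone was read as Pielou evenness, the log of the effective number over the log of the number of segments found. For the heavy chain it was 0.778, 0.891 and 0.780 in Bmal1KO and 0.811, 0.894 and 0.915 in Bmal1WT. For the kappa chain it was 0.628, 0.906 and 0.708 in Bmal1KO and 0.656, 0.862 and 0.818 in Bmal1WT, with overlap at both loci. Bmal1KO replicate 2, lowest in effective number for the heavy chain, was thus not the least even. Usage was concentrated at each locus: 3, 6 and 3 kappa segments held 50% of kappa V counts in Bmal1KO and 2, 6 and 6 in Bmal1WT, while 4, 3 and 6 heavy segments held 50% of heavy V counts in Bmal1KO and 4, 4 and 8 in Bmal1WT. Shares were of counts, not per length, but member transcripts ran from 334 to 501 bases, and the leading segment was the same per length in 17 of the 18 combinations of library and locus. The exception was the heavy chain of Bmal1WT replicate 3, where 10 and 9 counts separated the leaders.

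Few segments were shared by all libraries. At 3 counts, 19 members were detected in 1 library, 41 in 2, 30 in 3, 25 in 4, 13 in 5 and 5 in all 6. The 5 were Ighv11-2, Igkv12-46, Igkv14-126, Igkv4-59 and Iglv1. At 1 count there were 17 such members, and at 10 counts 1, Iglv1. Only 17.5% of the windows of Igkv4-59 were particular to it, so its small counts could come from other V segments. Igkv12-46 had 488, 12 and 113 counts in Bmal1KO and 13, 11 and 9 in Bmal1WT. It averaged 29.3 ± 38 CPM in Bmal1KO and 1.24 ± 0.259 CPM in Bmal1WT (SD, n = 3 each). Its groups overlapped through Bmal1KO replicate 2 and Bmal1WT replicate 1.

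**Figure D4:**
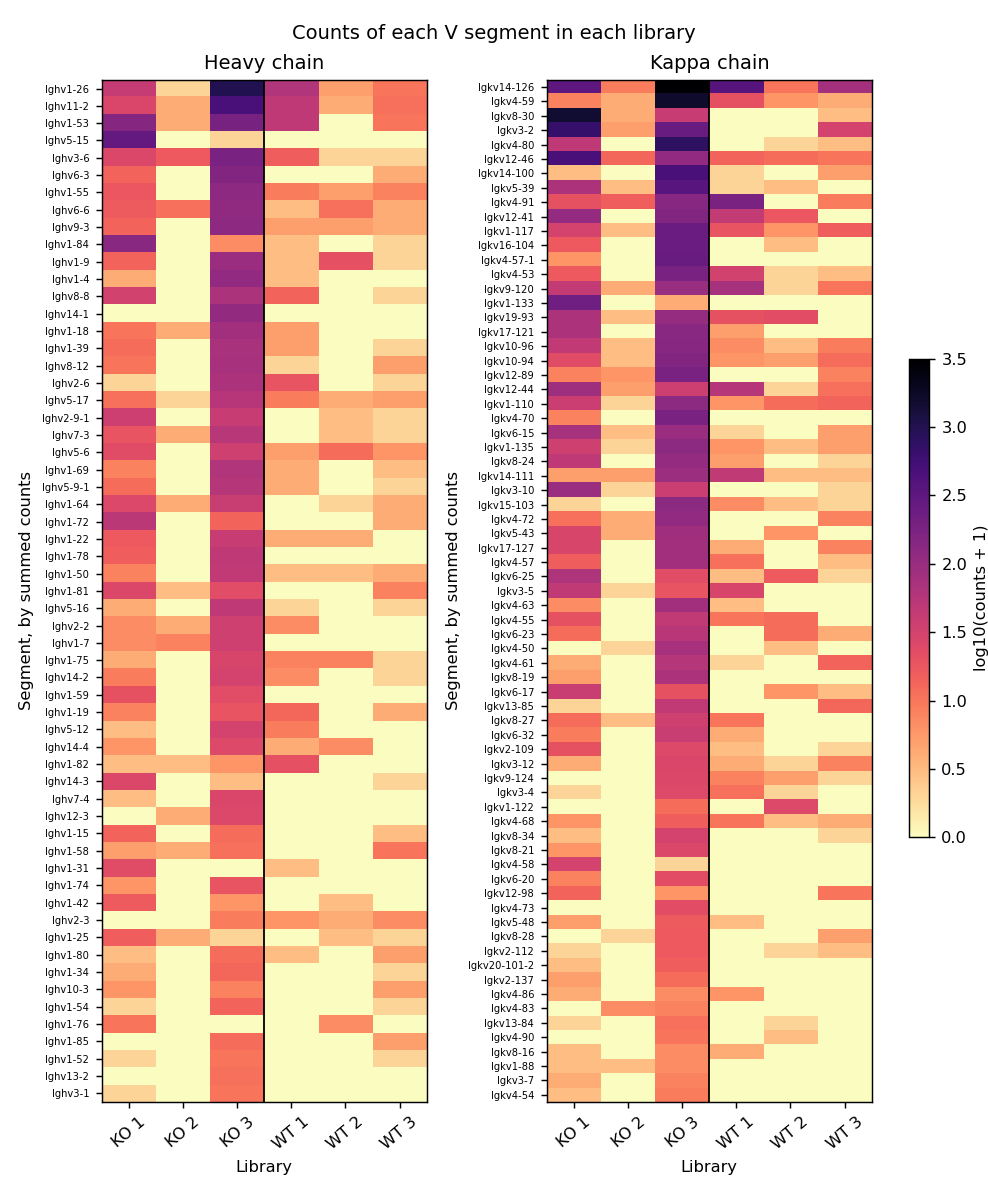
Counts of each heavy (left) and kappa (right) member in each library, on a log10 scale of counts + 1, ordered by summed counts, with Bmal1KO (KO) columns left of Bmal1WT (WT) columns. KO 3 is filled almost throughout (127 of 133 members detected, lambda included) and KO 2 is mostly empty, with 88 members at 0 counts.

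The smaller detected sets lay mostly within the larger ones. Of the 133 members, Bmal1KO replicate 3 detected 127 and Bmal1KO replicate 1 detected 102. The members were chosen by counts that came mostly from Bmal1KO replicate 3. Most of any set of members would therefore be found in these libraries, and the overlaps with them are a description. All 55 members detected in Bmal1WT replicate 1, all 47 of Bmal1WT replicate 3 and 28 of the 29 of Bmal1WT replicate 2 were also detected in Bmal1KO replicate 3, where they were 43.3%, 37.0% and 22.0% of its 127. Of the 26 members of Bmal1KO replicate 2, 25 (96.2%) were found in Bmal1KO replicate 3, and 24 (92.3%) in Bmal1KO replicate 1. Bmal1KO replicates 1 and 3 shared 96 members, 94.1% of the first and 75.6% of the second. Within Bmal1WT, pairs shared 16 to 25 members. Similarity in usage, the sum over segments of the smaller of both shares, had a median over pairs of 27.1% within Bmal1KO, 34.5% within Bmal1WT and 29.0% between groups for the heavy chain. For the kappa chain the medians were 34.7%, 28.1% and 34.2%. No test was made on these medians. The most alike pairs crossed the groups: Bmal1KO replicate 3 with Bmal1WT replicate 1 for heavy (61.8%) and with Bmal1WT replicate 3 for kappa (52.8%).

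Segments held almost wholly by a single library were found in Bmal1KO replicates 1 and 3. At 90% or more of a member's CPM in 1 library, 24 members qualified, against 3.3% of the 19906 genes with at least 10 counts. Of these, 7 belonged to Bmal1KO replicate 1 and held 35.4% of its V counts, led by Igkv8-30, Ighv5-15 and Igkv1-133 (220, 0 and 3 counts in Bmal1KO and 0 in each Bmal1WT library). The other 17 belonged to Bmal1KO replicate 3 and held 26.9% of its V counts, led by Igkv4-59, Igkv4-80 (46, 0 and 810 counts in Bmal1KO and 0, 1 and 2 in Bmal1WT) and Igkv14-100 (2, 0 and 485 in Bmal1KO and 1, 0 and 4 in Bmal1WT). Igkv1-133, Igkv4-80 and Igkv14-100 were named after their values were seen. Bmal1KO replicate 3 was the highest library for 107 members (background 16.7% of genes), Bmal1KO replicate 1 for 23 (26%), Bmal1KO replicate 2 for 0 (17.2%), and Bmal1WT replicates 1, 2 and 3 for 2, 1 and 0 (14.6%, 11.8% and 13.7%). Since the members were chosen by their summed counts, which came mostly from Bmal1KO replicate 3, these counts are a description.

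Grouped by family, the members fell into 30 families of related sequence. Ighv1, the largest mouse heavy chain family, took 52.5%, 40.9% and 53.7% of heavy V counts in Bmal1KO and 55.7%, 53.1% and 58.9% in Bmal1WT, and was the leading heavy family in every library. Ighv5, which holds Ighv5-15, took 27.7%, 1.52% and 5.58% in Bmal1KO and 7.43%, 14.6% and 8.87% in Bmal1WT. Among kappa families, Igkv4 took 4.18%, 28.7% and 33.7% in Bmal1KO and 26.2%, 13.0% and 13.5% in Bmal1WT, and Igkv14 took 7.11%, 12.8% and 33.5% in Bmal1KO and 41.0%, 5.98% and 28.0% in Bmal1WT. Group ranges of shares did not overlap for 2 of the 30 families, 1 in each direction, which is not above the 7.83% (Bmal1KO above) and 6.21% (Bmal1KO below) of genes with no overlap in CPM. Igkv8 took 34.7%, 6.38% and 2.95% of kappa V counts in Bmal1KO and 1.58%, 0% and 2.703% in Bmal1WT, and Ighv2 took 3.45%, 4.55% and 3.67% of heavy V counts in Bmal1KO and 8.98%, 5.21% and 6.45% in Bmal1WT. No test was made on family shares.

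V segments lie in long arrays upstream of their J segments, and the position of a segment sets how far apart the joined ends were. The heavy array is on chromosome 12, the kappa array on chromosome 6 and the lambda segments on chromosome 16 (mm10). The count-weighted median distance of heavy segments from Ighj1 was 1.35, 1.01 and 1.25 Mb in Bmal1KO and 1.36, 1.15 and 1.36 Mb in Bmal1WT. For kappa segments and Igkj1 it was 0.605, 1.76 and 1.95 Mb in Bmal1KO and 2.47, 1.78 and 2.09 Mb in Bmal1WT. The low value of Bmal1KO replicate 1 was the position of Igkv8-30 itself, and the high value of Bmal1WT replicate 1 accompanied its 36.4% of Igkv14-126. Kappa segments point in both directions, and those on the strand opposite to Igkc join by inversion, which keeps the intervening DNA. Segments on the strand of Igkc, 27 of the 71 kappa members, took 38.7%, 26.6% and 48.7% of kappa V counts in Bmal1KO and 57.0%, 44.6% and 61.8% in Bmal1WT, with overlap.

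**Figure D5:**
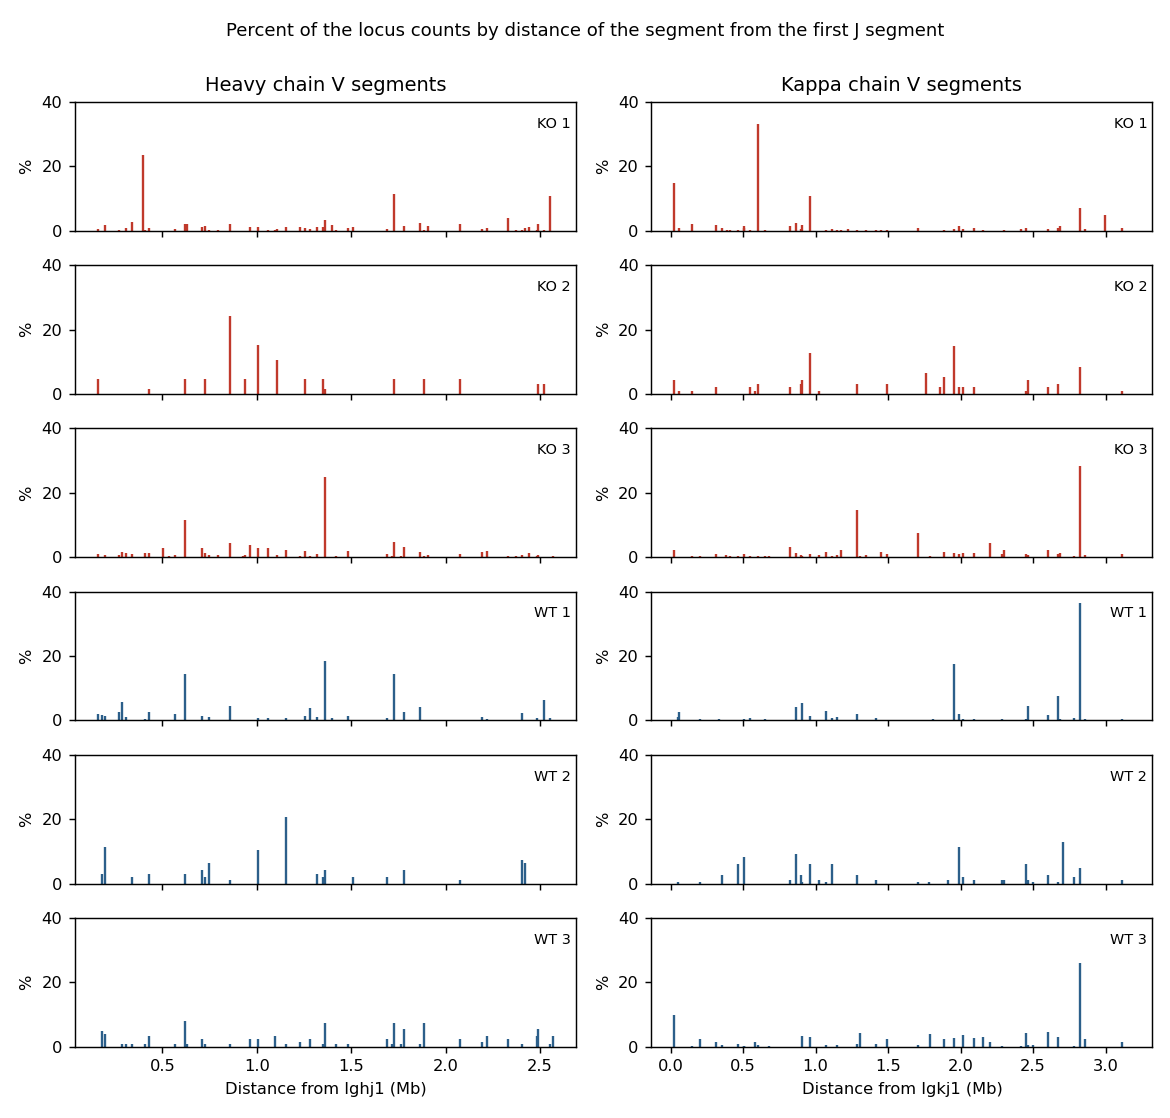
Percent of heavy (left) and kappa (right) V counts at each member, against its distance in Mb from the first J segment, with the 3 Bmal1KO (KO) libraries above the 3 Bmal1WT (WT) libraries; each bar is 1 segment. The tall kappa bar lies at 0.605 Mb in KO 1 (Igkv8-30, 33.2%) and at the far end in KO 3, WT 1 and WT 3 (Igkv14-126, 26.0% to 36.4%).

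Set against the spread between samples in a fit over all genes, no V segment passed. The edgeR quasi-likelihood test was run on 13859 genes, of which 0 were called at an adjusted p under 0.05, which is 0% of genes tested. At an unadjusted p under 0.05, 700 genes were higher (5.05%) and 590 lower (4.26%), and DESeq2 called 60 genes. Low counts kept 107 of the 133 members out of the fit, and the 26 tested included 0 called, 5 higher at an unadjusted p under 0.05 and 0 lower. All 26 had a log2 fold change above 0, against 52% of genes tested, with a median of 2.69 against 0.02 over all genes. The 26 rest on the same 6 libraries, are not independent of each other, and entered the fit by counts that came mostly from Bmal1KO replicates 1 and 3.

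The 5 members of smallest unadjusted p spanned both chains. Ighv3-6, described above, had a log2 fold change of 3.94 ± 1.14 (SE; edgeR unadjusted p = 0.0062, adjusted p = 0.414). Ighv6-6 had 15, 10 and 118 counts in Bmal1KO and 2, 10 and 3 in Bmal1WT, with a log2 fold change of 3.40 ± 1.03 (SE; edgeR adjusted p = 0.414). Its groups overlapped in Bmal1KO replicate 2 and Bmal1WT replicate 2. Igkv10-94 had 23, 2 and 154 counts in Bmal1KO and 5, 4 and 11 in Bmal1WT, at 3.35 ± 1.16 (SE; edgeR adjusted p = 0.453). Igkv12-46 was at 4.56 ± 1.46 (SE; edgeR adjusted p = 0.470). Igkv1-110 had 37, 1 and 124 counts in Bmal1KO and 5, 11 and 13 in Bmal1WT, at 2.69 ± 1.09 (SE; edgeR adjusted p = 0.491). In all 5, Bmal1KO replicate 3 or 1 was highest, and in Igkv10-94 and Igkv1-110 Bmal1KO replicate 2 was lowest of the 6.

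Of the 133 members, 7 had every Bmal1KO library above every Bmal1WT library in CPM, against 7.83% of genes with at least 10 counts, and 0 had every Bmal1KO library below, against 6.21%. The 7 of 133 were not above this background. They were Ighv1-64, Ighv1-7, Ighv3-6, Ighv7-3, Igkv1-88, Igkv3-10 and Igkv8-30. A further view without Bmal1KO replicate 2 called 2 members higher, Igkv12-46 and Igkv5-39 (background 0.0414% of genes called higher), and DESeq2 called 4 members higher, Igkv1-135, Igkv10-96, Ighv1-7 and Igkv5-39 (background 0.25%). Igkv5-39 had 66, 2 and 352 counts in Bmal1KO and 1, 2 and 0 in Bmal1WT. Bmal1KO replicate 2 equalled the highest Bmal1WT count. With no filter on low counts edgeR called 27 members (background 0.313%). The members tested were 133 with no filter, 75 with DESeq2 and 70 without Bmal1KO replicate 2. Calls with no filter included Ighv1-78 and Igkv8-19, which had 0 counts in Bmal1KO replicate 2 and in every Bmal1WT library. The members were chosen by counts that came mostly from Bmal1KO replicates 1 and 3. The backgrounds cover genes not chosen in this way, so the excess over them is not a result about the members.

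Other genes of the antibody pathway were read in the same fit, and 0 members of any list were called. Over all genes tested, 5.05% were higher and 4.26% lower at an unadjusted p under 0.05, 52% had a log2 fold change above 0, and the median was 0.02. Antibody constant and joining chains had 12 of 13 genes tested, of which 2 were higher at an unadjusted p under 0.05, and a median log2 fold change of 2.34. Ighg2b, an IgG2b heavy chain, had 438, 47 and 2255 counts in Bmal1KO and 47, 69 and 63 in Bmal1WT, with overlap in Bmal1KO replicate 2. The summed level of the list was 4645, 757 and 8520 CPM in Bmal1KO and 1665, 1641 and 1905 CPM in Bmal1WT, in the same order at both ends as the V sum. B cell genes had 10 of 12 tested, 2 higher at an unadjusted p under 0.05, and a median of 1.86. Bank1, a scaffold protein of B cell receptor signalling, had 32, 97 and 306 counts in Bmal1KO and 32, 37 and 39 in Bmal1WT. In CPM the Bmal1KO libraries, at 4.76 to 37.8, lay above the Bmal1WT libraries, at 3.64 to 4.33. Plasma cell genes had 8 of 10 tested, 1 higher at an unadjusted p under 0.05, and a median of 0.84, and their sum of 371 to 449 CPM in Bmal1KO and 376 to 483 CPM in Bmal1WT did not follow the V sum. Most of it was Xbp1, a secretory regulator that many cell types express, with 2123, 2174 and 2265 counts in Bmal1KO and 2298, 2344 and 3252 in Bmal1WT. Mzb1, a plasma and B-1 cell chaperone cofactor below the filter, had 15, 0 and 61 counts in Bmal1KO and 7, 0 and 4 in Bmal1WT. The list was mixed. Mzb1, Derl3, Pou2af1 and Fkbp11 were highest in Bmal1KO replicate 3, as was the V sum. Prdm1 (27, 75 and 15 counts in Bmal1KO and 21, 7 and 19 in Bmal1WT) was highest in Bmal1KO replicate 2, the library with least V RNA. Irf4 (64, 131 and 116 in Bmal1KO and 53, 76 and 29 in Bmal1WT) was also highest there. Sdc1 had a log2 fold change of -0.34.

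The factors that act on V genes gave few counts. Of the 6 genes of V(D)J recombination, its surrogate chains and hypermutation, 0 were tested, and their summed level was at most 1.93 CPM in Bmal1KO and 1.29 CPM in Bmal1WT. All 3 V promoter factors, the octamer-binding Pou2f1 and Pou2f2 and their B cell coactivator Pou2af1, were tested with 0 at an unadjusted p under 0.05 and a median of 0.56. Pou2af1 had 33, 4 and 178 counts in Bmal1KO and 2, 9 and 35 in Bmal1WT, with overlap.

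Markers of other cells were set beside the V sum, and their part in it was not tested. The T cell list had 10 of 10 genes tested and above 0, 7 of them higher at an unadjusted p under 0.05 (52% and 5.05% over all genes tested), with summed levels of 80.3, 198 and 140 CPM in Bmal1KO and 22.4, 67.2 and 39.4 CPM in Bmal1WT. It was highest in Bmal1KO replicate 2, the library with the least V RNA. In the lymph node and follicle list 8 of 9 entries matched a row and 3 were tested, with summed levels of 36.1, 42.4 and 356 CPM in Bmal1KO and 21.4, 38.1 and 39.4 CPM in Bmal1WT. Bmal1KO replicate 3 stood apart through Cxcl13, the chemokine that draws B cells into follicles, with 143, 96 and 2349 counts in Bmal1KO and 133, 264 and 291 in Bmal1WT. Its receptor gene Cxcr5 had 4, 27 and 257 counts in Bmal1KO and 30, 0 and 27 in Bmal1WT, and Ccl21a was at 0 everywhere. Of the 3 tested genes, only Ltb was higher at an unadjusted p under 0.05 (5.05% over all genes tested). Ltb had 69, 242 and 237 counts in Bmal1KO and 24, 58 and 34 in Bmal1WT. Every Bmal1KO library lay above every Bmal1WT library for Ltb in CPM, as did 7.83% of genes with at least 10 counts. Bmal1KO replicate 1, next in V counts, thus lay within the Bmal1WT range for Cxcl13 and Cxcr5. In CPM it lay above that range for Ltb, Glycam1, Cr2 and, at 2 counts, Madcam1. Glycam1 had 9, 1 and 16 counts in Bmal1KO and 0 in each Bmal1WT library. Cr2 had 14, 4 and 19 counts in Bmal1KO and 0, 0 and 4 in Bmal1WT. Adipocyte genes had 8 of 8 tested, 1 lower at an unadjusted p under 0.05 (4.26% over all genes tested) and a median of -0.27, and macrophage genes 8 of 8 tested, 1 higher and a median of 0.33.

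T cell receptor V rows, the family most like these segments, ranked the libraries differently. They summed to 17.3, 24.5 and 17.3 CPM in Bmal1KO and 3.30, 7.48 and 3.22 CPM in Bmal1WT. Every Bmal1KO library lay above every Bmal1WT library, as did 7.83% of genes with at least 10 counts. In Bmal1KO replicate 1, the library with counts in the most genes, the effective number of these rows was 30.5, the highest of any library. Counts of immunoglobulin V rows per T cell receptor V count were 55.3, 0.843 and 118 in Bmal1KO and 49.2, 7.14 and 16.7 in Bmal1WT. Bmal1KO replicate 2 was the one library with more T cell receptor than immunoglobulin V counts, 217 against 183. With a threshold of 10 summed counts, 17 T cell receptor rows would have been members.

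Annotated V pseudogenes held few counts. Of the V rows, 60.2% of 216 functional genes and 2.33% of 129 pseudogenes reached the threshold, and the 3 pseudogene members were Ighv1-25, Igkv4-73 and Igkv4-83. Pseudogene rows held 42, 12 and 50 counts in Bmal1KO and 1, 4 and 1 in Bmal1WT, or 0.655%, 6.56% and 0.303% of V counts in Bmal1KO and 0.0700%, 0.875% and 0.200% in Bmal1WT. The share was highest in Bmal1KO replicate 2, where V counts were fewest. Bmal1KO replicate 1, the library with counts in the most genes, had counts at 18 of the 129 pseudogene rows, the largest number of the 6.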

How the data were processed

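Whole visceral adipose tissue was profiled by RNA sequencing from oligo(dT)-primed, Nextera XT libraries read as pairs of 38 bases, per the labels' protocols. The deposited values are raw counts per gene, made by the authors with STAR 2.7.3a on mm10 and featureCounts, per the submitters' processing notes. The gene models, the strand option and the rule for multi-hit reads were not given in the sources used here. Groups came from the sample titles. The members and gene lists were chosen with earlier results of these data known.

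The test was that of edgeR 4.0.16 (R 4.3.3), run on the counts of all genes (filterByExpr, TMM scaling, robust quasi-likelihood F-test, Bmal1KO against Bmal1WT without covariates, Benjamini-Hochberg threshold 0.05). CPM uses TMM-scaled library sizes. The fit was tried on simulated data first. DESeq2 1.42.0, other scalings and filters, leaving out libraries and a replicate block were alternatives. Shares, evenness and overlap were computed in Python 3.11.15 with pandas 2.3.3 and scipy 1.17.1, over members, per library. The percent of genes called, not overlapping or highest in a library was taken over all genes tested or all 19906 genes with at least 10 counts. V rows matched GENCODE M21 by symbol, each to 1 gene, and windows of 38 bases were searched in the V transcripts of that annotation on both strands, not in the rest of the genome.

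Named segments were the 3 of highest summed counts per locus, the most abundant per locus and library, the 5 of smallest p, those detected in every library and those at the threshold; others were named after their values were seen. V promoters and proteins were not used here.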

Additional observations from a re-analysis of the deposited data

How the results depend on the processing

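The ratio of summed V levels kept its direction under every scaling, member set and left-out library tried. Every setting kept Bmal1KO replicate 1 or 3, at 941 and 2018 CPM, which held the Bmal1KO mean high. By contrast, Bmal1KO replicate 2, at 19.8 CPM, was below every Bmal1WT library. The steady direction is therefore a description and does not test the groups. The log2 ratio of 3.49 ran from 2.44 without Bmal1KO replicate 3 to 4.25 without Bmal1WT replicate 1 with 1 library left out. It was 4.29 without replicate 1 of both groups, and 2.14 as a difference of mean log2 CPM. The difference in detected segments (20.3 to 70.8), in kappa share (1.12 to 21.0 percentage points) and in leading heavy share (4.57 to 10.95) kept its sign with each library left out. Smaller differences did not. The effective number of heavy segments, -0.76 in all 6 libraries, ranged from -3.45 to 3.57 with 1 library left out (2.91 without Bmal1KO replicate 2, 3.57 without Bmal1WT replicate 3) and was 0.475 over segments with at least 50% of windows unique. That of kappa, 1.182, ranged from -1.76 without Bmal1WT replicate 1 to 3.35 (-0.06 without Bmal1KO replicate 3) and was -0.32 by the inverse Simpson index. The leading kappa share, a difference of 0.275 points, ranged from -5.78 without Bmal1WT replicate 2 to 5.91 (-3.60 without Bmal1KO replicate 1, -1.12 without Bmal1KO replicate 3) and was -1.35 over the more unique segments. Members detected in every library, 5, became 17 at 1 count and 1 at 10 counts. The cause of these shifts was not tested.

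Genes called, 0 in the edgeR fit, became 186 with no filter, 60 with DESeq2, 61 without replicate 1 of both groups (added after seeing the data), and 0 to 156 with 1 library left out (156 without Bmal1KO replicate 1, 6 without Bmal1KO replicate 2, 1 without Bmal1WT replicate 1). V segments called, 0, became 27 with no filter, 4 with DESeq2 and 0 to 2 with 1 library left out. V segments at an unadjusted p under 0.05, 5, became 65 with no filter, 40 with DESeq2, and 1 to 57 with 1 library left out (1 without Bmal1KO replicate 3, 57 without Bmal1KO replicate 2). Library size alone moved the median log2 fold change of all genes to 0.11, from 0.02.

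Replicate numbers showed no sign of pairing the samples: same-numbered libraries correlated at -0.07, 0.09 and -0.03 in their deviations from group means. Libraries of different numbers correlated at -0.08 to 0.11. With 3 libraries a group these values cannot show that the samples were unpaired. The replicate block called 0 genes and 0 V segments and put 9 V segments at an unadjusted p under 0.05. Low V counts limit Bmal1KO replicate 2 (175) and Bmal1WT replicates 2 and 3 (446 and 487), where 1 count is a visible share.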
